A study of Mus musculus with 15 samples.

Results

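The genes described here carry or restrain the signal of leukaemia inhibitory factor (LIF): the receptor chains Lifr and Il6st (gp130), the kinases Jak1 and Jak2, the transcription factor Stat3, the inhibitors Socs2 and Socs3, and the phosphatase Ptpn11 (SHP2). They are the 8 genes of a list of names, matched to 8 of the 52636 Ensembl identifiers of the count table, and all 8 were among the 13451 genes that passed the filter on low counts. LIF brings Lifr and Il6st together at the cell surface, and Jak kinases bound to these chains then phosphorylate them. Stat3 docks on the phosphorylated chains and enters the nucleus, where Socs3 is a classical target gene that feeds back on the receptor, while Ptpn11 links the same receptor to the RAS and ERK route. In mouse embryonic stem cells LIF and Stat3 help to hold the naive state.

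The cells were epiblast-like cells (EpiLCs), an in vitro counterpart of the epiblast shortly after implantation, of the mouse line CRAFR26. This line carries a c-RAF kinase construct that 4-hydroxytamoxifen (4OHT) switches on, so that ERK is induced by adding 4OHT at 250 nM. Embryonic stem cells were taken through 2 passages as RSCs (an abbreviation the labels do not spell out) and then 48 h of EpiLC differentiation in N2B27 with bFGF (12 ng/ml), Activin A (20 ng/ml) and XAV939 (1 µM). LIF is not among these additives. Every group, 0h included, had 2 h of the FGF receptor inhibitor PD17 (PD173074, 250 nM) before 4OHT. The groups were 0h (PD17 and no 4OHT, n = 3), 2h (4OHT for 2 h, n = 4), 4h (4OHT for 4 h, n = 4) and rev (4OHT for 4 h, then a MEK inhibitor for 2 h, n = 4). All cells came from 2 clones of the construct line, clone 4 (7 samples) and clone 8 (8 samples), with 1 sample of clone 4 and 2 of clone 8 at 0h and 2 of each clone in the other groups. The authors discarded 1 sample of 0h in quality control. Nothing in the labels says that the samples of 1 clone came from separate cultures, so p-values measure the spread between these samples, which may be partly technical. In rev, the MEK inhibitor cannot be told apart from the 2 further hours in culture.

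Library totals ranged from 8667880 to 13004556 counts in 0h, 2h and rev, and were lower at 4h, where they ranged from 1552022 to 6658950. Mitochondrial genes took 7.21% to 12.4% of the counts at 4h and 2.67% to 6.98% elsewhere. The 7 EpiLC markers (Fgf5, Otx2, Pou3f1, Dnmt3a, Dnmt3b, Pou5f1, Sox2) were detected in all groups, and their summed level was 1498 to 1709 CPM (the CPM of edgeR, on library sizes adjusted by TMM) at 0h, 1415 to 1628 at 2h, 873 to 1023 at 4h and 1220 to 1408 in rev. At 4h against 0h, 5 of them fell and 2 rose, where 18.9% of the 13451 genes fell and 20.5% rose. Naive stem cell markers (Zfp42, Esrrb, Klf4, Tfcp2l1, Nanog, Tbx3, Prdm14) summed to 29.5 to 38.2 CPM in 0h, 2h and rev, to 56.8 and 57.5 at 4h in clone 4, and to 208 and 229 at 4h in clone 8, and 6 of the 7 rose at 4h against 0h. Neural markers summed to 2.86 to 10.1 CPM outside 4h and to 37.9 to 50.5 at 4h, where Sox1 and Pax6 rose and Neurog2 had no count. Summed markers of mesendoderm (5 genes), primitive endoderm (5), trophectoderm (4) and fibroblasts (4) did not exceed 15.4 CPM in a library, and Postn had no count anywhere. Of these, Eomes and Gata3 rose and Thy1 fell at 4h against 0h. In rev against 0h, Eomes, Gsc, Foxa2, Sox1, Pax6, Gata3, Col1a1, Tbx3 and Sox2 were higher and Dnmt3b was lower. Of the 13451 genes, 6.49% were higher and 4.66% lower in that comparison. Summed mesendoderm markers spanned 3.01 to 4.00 CPM at 0h and 8.20 to 13.5 in rev. Those of trophectoderm spanned 1.57 to 2.92 CPM at 0h, 1.59 to 9.63 at 4h and 1.97 to 5.06 in rev, and those of fibroblasts 3.14 to 9.12 at 0h and 6.23 to 15.4 in rev. These marker, depth and mitochondrial values move together with the 4h group in every result on it below, as the markers named for rev do with the calls of Jak1, Jak2 and Il6st in rev vs 0h, and their part in those results was not tested. In bulk RNA, fewer cells of a type and less RNA per cell cannot be told apart.

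The 250 bases before the annotated start site were available from RefSeq (GRCm38.p6) for 7 of the 8 genes, 8 windows in all, since Lifr has 2. They were searched on both strands for a STAT motif (TTCNNNGAA) and for motifs of factors linked to ERK output: EGR (GCGNGGGCG), AP-1 (TGANTCA) and ETS (CCGGAA). The 4 windows with any match are shown, since they hold every match found in these genes. Each is written 5′ to 3′ on the strand of the gene, ends at the base before the start site, and has the matches in capitals.
Lifr, first start site, chr15:7129322-7129571, plus strand: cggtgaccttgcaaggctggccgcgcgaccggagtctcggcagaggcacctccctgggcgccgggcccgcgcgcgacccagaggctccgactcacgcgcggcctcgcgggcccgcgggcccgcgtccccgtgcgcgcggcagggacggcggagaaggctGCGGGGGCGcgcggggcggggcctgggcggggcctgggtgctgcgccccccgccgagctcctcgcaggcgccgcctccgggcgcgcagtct
Il6st, chr13:112463820-112464069, plus strand: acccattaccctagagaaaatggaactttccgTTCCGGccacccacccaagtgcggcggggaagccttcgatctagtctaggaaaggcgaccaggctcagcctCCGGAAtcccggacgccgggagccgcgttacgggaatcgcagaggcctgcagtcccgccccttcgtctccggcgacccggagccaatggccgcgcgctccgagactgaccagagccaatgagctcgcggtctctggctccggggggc
Socs3, chr11:117969367-117969616, minus strand: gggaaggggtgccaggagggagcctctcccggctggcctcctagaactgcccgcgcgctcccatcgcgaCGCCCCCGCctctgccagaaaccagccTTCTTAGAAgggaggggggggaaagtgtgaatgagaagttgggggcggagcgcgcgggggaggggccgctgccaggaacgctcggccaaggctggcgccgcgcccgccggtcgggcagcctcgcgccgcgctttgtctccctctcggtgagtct
Ptpn11, chr5:121191398-121191647, minus strand: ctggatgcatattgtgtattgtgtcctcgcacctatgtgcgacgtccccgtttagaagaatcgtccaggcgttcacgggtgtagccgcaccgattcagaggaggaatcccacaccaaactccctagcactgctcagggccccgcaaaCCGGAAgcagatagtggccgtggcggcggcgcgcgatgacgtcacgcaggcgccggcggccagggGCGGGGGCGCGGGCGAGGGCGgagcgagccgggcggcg
The capitals mark 1 EGR match in Lifr and 2 ETS matches in Il6st. In Socs3 they mark an EGR match on the opposite strand, followed by the only STAT match found, TTCTTAGAA. In Ptpn11 they mark 1 ETS match and then a run of 3 overlapping EGR matches. Over all 32841 promoter windows of this length, the STAT motif was found in 7.02%, the EGR motif in 4.70%, the AP-1 motif in 6.75% and the ETS motif in 12.0%. No AP-1 match lay in any of the 8 windows, and none of the 4 motifs was found in the second Lifr window or in those of Jak1, Jak2 and Stat3. A match describes these letters and is not a binding site. The start sites are those of RefSeq. The windows of Lifr and Socs3 lie inside the gene spans given below, which come from GENCODE.

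The genes differed in level. Per kilobase of annotated exon, the mean over the 15 libraries was highest for Ptpn11 (7.16 CPM per kb, SD 1.40), followed by Jak1 (4.86, SD 1.96), Jak2 (2.31, SD 1.43), Socs2 (1.70, SD 0.717), Lifr (1.59, SD 1.76), Il6st (1.38, SD 0.616), Stat3 (0.801, SD 0.194) and Socs3 (0.370, SD 0.246). Some neighbours in this order were not separated: Jak2 lay above Socs2 in 10 of 15 libraries and Lifr above Il6st in 5 of 15. By contrast Jak1 lay above Jak2 in 15 of 15, and Stat3 lay above Socs3 in 14 of 15. Ptpn11 lay above Jak1 in 13 of 15, but at 4h in clone 4 the order was reversed, with a mean of 8.90 CPM per kb for Jak1 and 4.81 for Ptpn11.

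**Figure D1:**
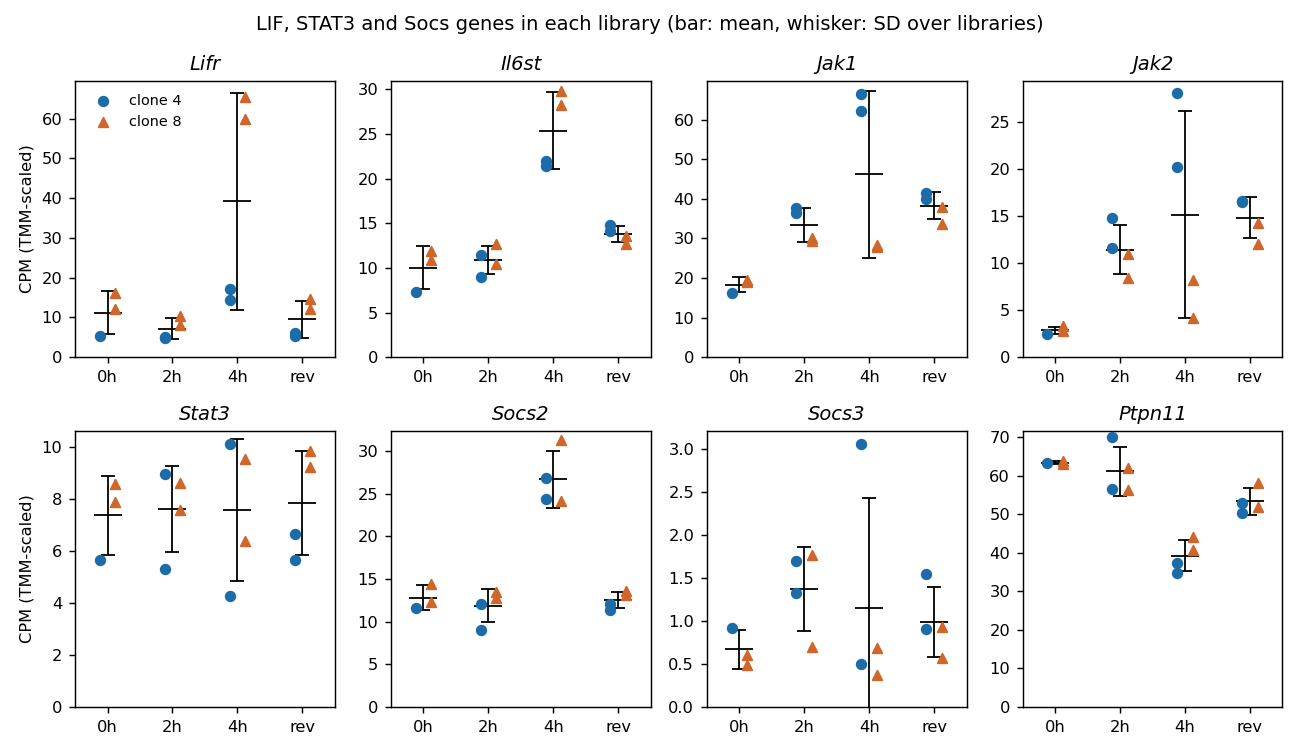
Level of each gene (CPM on TMM-scaled libraries, linear axis from 0) in each library by group, with clone 4 as circles and clone 8 as triangles; the horizontal bar is the group mean and the whisker the SD (n = 3 at 0h, n = 4 elsewhere), cut at 0 for Socs3 at 4h. Lifr, Il6st and Socs2 are high at 4h, Ptpn11 is low at 4h, and Jak1 and Jak2 are above 0h in every later group, with the clones apart at 4h.

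The receptor chains rose at 4 h of 4OHT, did not pass the test at 2 h, and were lower in rev than at 4h. Lifr (ENSMUSG00000054263, chr15:7090614-7197489, plus strand, 24 merged exons) encodes a chain of the LIF receptor. At 0h it stood at 5.34 CPM in clone 4 and at 12.2 and 16.1 CPM in clone 8. At 2h its level was 4.88 and 5.04 CPM in clone 4 and 10.4 and 8.20 in clone 8. After 4 h it was 17.1 and 14.3 CPM in clone 4 and 65.3 and 59.9 in clone 8. In rev it was back at 6.03 and 5.27 CPM in clone 4 and 14.5 and 12.1 in clone 8. Within each clone, every 4h library was above every other library, but over both clones the 4h and 0h groups overlapped, because clone 4 at 4h was near clone 8 at 0h. The log2 fold change was 1.90 (SE 0.197) for 4h vs 0h, with an adjusted p of 2.37e-07 (edgeR quasi-likelihood test, Benjamini-Hochberg over all 13451 genes, threshold 0.05, here and below). It was 2.26 (adjusted p = 6.03e-09, SE 0.185) for 4h vs 2h and -1.90 (adjusted p = 9.10e-08, SE 0.181) for rev vs 4h. Neither 2h vs 0h (-0.36, adjusted p = 0.283, SE 0.190) nor rev vs 0h (-0.01, adjusted p = 0.986, SE 0.188) passed the test. Lifr was also the gene of the 8 that separated the clones most, with a mean of 24.9 CPM in clone 8 and 8.28 in clone 4 and a log2 difference of 1.38 (adjusted p = 2.65e-07, SE 0.134) after allowing for the group.

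Il6st (ENSMUSG00000021756, chr13:112464070-112510086, plus strand, 20 merged exons) encodes gp130, the chain shared by the receptors of the IL-6 family. Its level was 7.29, 10.9 and 11.9 CPM at 0h (clone 4, then clone 8) and 8.97, 11.5, 12.6 and 10.4 CPM at 2h (2 samples of clone 4, then 2 of clone 8, the order used for every group of 4 below). It was 22.0, 21.5, 29.8 and 28.3 CPM at 4h and 14.2, 14.9, 13.5 and 12.7 CPM in rev. All 4h libraries lay above all others, and all rev libraries lay above all 0h libraries by a smaller margin. The log2 change was 1.39 (adjusted p = 1.26e-06, SE 0.163) for 4h vs 0h, 1.22 (adjusted p = 1.54e-06, SE 0.148) for 4h vs 2h and -0.86 (adjusted p = 0.000134, SE 0.147) for rev vs 4h. Il6st in rev passed the test against 0h (0.53, adjusted p = 0.0340, SE 0.159). That call was lost without the clone 4 library at 0h (0.35, adjusted p = 0.316), the first clone 8 library at 0h (0.56, adjusted p = 0.0711) and either clone 4 library of rev (0.49, adjusted p = 0.0723, and 0.45, adjusted p = 0.104). The change at 2h was 0.17 (adjusted p = 0.568, SE 0.157).

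The kinases had risen by 2 h of 4OHT and were still above 0h in rev. Jak2 (ENSMUSG00000024789, chr19:29251828-29313080, plus strand, 25 merged exons), a kinase of many cytokine receptors, was low at 0h, at 2.48, 2.81 and 3.27 CPM. It stood at 11.6, 14.9, 11.0 and 8.41 CPM at 2h and at 28.1, 20.2, 8.20 and 4.15 CPM at 4h. In rev its level was 16.6, 16.5, 14.2 and 12.0 CPM. Each of the 12 libraries with 4OHT was above each 0h library, although at 4h clone 4 was high and clone 8 low. The 4h values rest on 46, 82, 36 and 11 counts. Jak2 rose by 1.87 on the log2 scale in 2h vs 0h (adjusted p = 0.00749, SE 0.368), by 2.12 in 4h vs 0h (adjusted p = 0.000687, SE 0.391) and by 2.25 in rev vs 0h (adjusted p = 0.00149, SE 0.373). The first of these was just lost without the clone 4 library at 0h (1.50, adjusted p = 0.0545). Neither 4h vs 2h (0.25, adjusted p = 0.567, SE 0.324) nor rev vs 4h (0.13, adjusted p = 0.805, SE 0.324) passed over both clones.

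Jak1 (ENSMUSG00000028530, chr4:101152367-101265282, minus strand, 28 merged exons) is the kinase on which gp130 signalling chiefly depends. Its exons overlap those of Raver2 on the opposite strand by 4 bases. At 0h it stood at 16.1, 19.1 and 19.6 CPM, and at 2h at 37.8, 36.3, 30.2 and 29.4 CPM. The levels were 62.3, 66.4, 28.2 and 27.9 CPM at 4h and 39.9, 41.6, 33.6 and 38.1 CPM in rev. As for Jak2, all libraries with 4OHT were above all 0h libraries, and the clones stood apart at 4h. The log2 change was 0.77 (adjusted p = 0.0272, SE 0.200) in 2h vs 0h, 1.18 (adjusted p = 0.000276, SE 0.209) in 4h vs 0h and 0.97 (adjusted p = 0.00435, SE 0.201) in rev vs 0h. The call at 2h was lost without the clone 4 library at 0h (0.51, adjusted p = 0.210), the second clone 4 library at 2h (0.79, adjusted p = 0.0604) or either clone 8 library at 2h (0.74, adjusted p = 0.102, and 0.76, adjusted p = 0.0568). For 4h vs 2h the change was 0.41 (adjusted p = 0.0869, SE 0.183), which passed without the first or the second clone 8 library at 4h (0.56, adjusted p = 0.0165, and 0.55, adjusted p = 0.0206). For rev vs 4h it was -0.20 (adjusted p = 0.435, SE 0.183).

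Stat3 itself (ENSMUSG00000004040, chr11:100885098-100939540, minus strand, 21 merged exons), the factor the receptor activates, passed no comparison between groups. Its exons overlap those of Stat5a on the opposite strand by 72 bases. Its level was 5.67, 7.89 and 8.60 CPM at 0h, and 2h gave 8.97, 5.31, 8.63 and 7.61 CPM. The 4h libraries stood at 4.28, 10.1, 9.56 and 6.41 CPM, and those of rev at 6.66, 5.68, 9.87 and 9.23 CPM. The groups overlapped throughout, and the spread between libraries of 1 clone at 4h was as wide as that over all groups in clone 4. The 4h values rest on 7 to 42 counts. The largest of the 5 log2 differences was 0.17 (adjusted p = 0.590, SE 0.235), for 4h vs 0h. With standard errors of 0.218 to 0.235, these differences do not show that Stat3 was level between groups. These are transcript levels, and the phosphorylated protein was not measured.

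Of the 2 Socs genes, Socs2 rose at 4h and Socs3 passed no test. Socs2 (ENSMUSG00000020027, chr10:95385362-95417180, minus strand, 13 merged exons), best known for damping growth hormone signalling, was at 11.7, 12.4 and 14.4 CPM at 0h and at 9.08, 12.1, 12.8 and 13.5 CPM at 2h. It reached 26.9, 24.4, 24.1 and 31.3 CPM at 4h and was at 11.4, 12.1, 13.1 and 13.6 CPM in rev. All 4h libraries were above all others, and the other 3 groups overlapped. It rose by 1.09 on the log2 scale in 4h vs 0h (adjusted p = 3.99e-06, SE 0.141) and by 1.17 in 4h vs 2h (adjusted p = 4.61e-07, SE 0.129), and fell by 1.08 in rev vs 4h (adjusted p = 1.95e-06, SE 0.129). Differences of -0.08 (adjusted p = 0.797, SE 0.135) in 2h vs 0h and 0.01 (adjusted p = 0.984, SE 0.136) in rev vs 0h did not pass.

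Socs3 (ENSMUSG00000053113, chr11:117966079-117970047, minus strand, 4 merged exons), which binds gp130 and blocks the kinases on it, stayed near the detection limit. It had 17, 9 and 4 counts at 0h (0.918, 0.602 and 0.485 CPM) and 15, 15, 8 and 33 at 2h (1.70, 1.33, 0.698 and 1.77 CPM). At 4h it had 5, 2, 3 and 1 counts (3.05, 0.494, 0.683 and 0.377 CPM), and in rev 13, 15, 4 and 9 (0.911, 1.55, 0.564 and 0.934 CPM). In 3 of the 4 libraries at 4h the count was at or under 3, the number that a count of 0 allows, and 3 counts there were worth 0.683 to 1.83 CPM. The log2 change was 0.97 in 2h vs 0h (adjusted p = 0.179, SE 0.416), 0.34 in 4h vs 0h (adjusted p = 0.662, SE 0.559), -0.63 in 4h vs 2h (adjusted p = 0.332, SE 0.495), 0.10 in rev vs 4h (adjusted p = 0.913, SE 0.521) and 0.44 in rev vs 0h (adjusted p = 0.565, SE 0.442). None of these passed, and with standard errors of 0.416 to 0.559 they do not show that Socs3 was level between groups.

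Ptpn11 (ENSMUSG00000043733, chr5:121130533-121191397, minus strand, 15 merged exons), the phosphatase that couples gp130 to ERK, went the other way. Its level was even at 0h, at 63.2, 63.1 and 63.8 CPM, and was 69.9, 56.5, 56.3 and 61.9 CPM at 2h. It was 34.8, 37.3, 44.2 and 40.7 CPM at 4h and 53.0, 50.3, 58.2 and 51.9 CPM in rev. All 4h libraries lay below all others, and all rev libraries lay between the 4h and the 0h libraries. Ptpn11 fell by 0.68 on the log2 scale in 4h vs 0h (adjusted p = 2.71e-05, SE 0.103) and by 0.64 in 4h vs 2h (adjusted p = 2.36e-05, SE 0.0968), and rose by 0.44 in rev vs 4h (adjusted p = 0.00147, SE 0.0967). The difference of -0.24 in rev vs 0h (SE 0.102) had an adjusted p of 0.136, and passed when only the libraries of the groups compared were fitted (-0.26, adjusted p = 0.0275). At 2h the change was -0.04 (adjusted p = 0.869, SE 0.103).

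**Figure D2:**
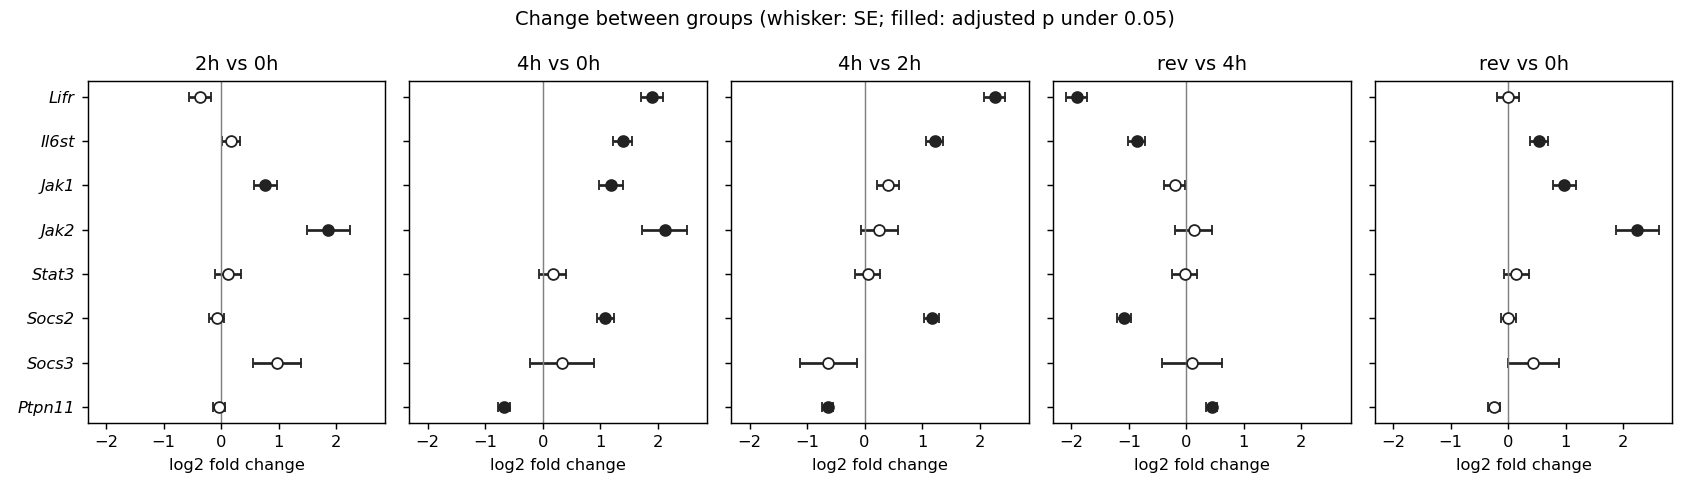
Log2 fold change of the 8 genes in the 5 comparisons (horizontal axis), with the SE as whisker and filled points where the adjusted p was under 0.05. Jak1 and Jak2 are the filled points of 2h vs 0h, and Lifr, Il6st, Socs2 and Ptpn11 are filled in both 4h vs 2h and rev vs 4h, on opposite sides of 0.

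Counted over the 8 genes, 2 rose and 0 fell in 2h vs 0h, where 3.98% of all tested genes rose and 2.46% fell. In 4h vs 0h, 5 rose and 1 fell, against 20.5% and 18.9% of all tested genes. For 4h vs 2h the counts were 3 and 1 (19.7% and 19.2% of all tested), and for rev vs 4h 1 rose and 3 fell (15.1% and 15.6%). In rev vs 0h, 3 rose and 0 fell (6.49% and 4.66%). The median log2 change of the 8 was 0.15, 1.13, 0.33, -0.12 and 0.29 in these 5 comparisons in turn, and that of all tested genes lay between -0.01 and 0.03. The comparisons share libraries: 4h vs 2h and rev vs 4h both use the 4h libraries, so a rise in the first and a fall in the second are not independent of each other. When total counts replaced TMM as the scale, the median log2 change of all genes became -0.18 for 2h vs 0h, -0.73 for 4h vs 0h, -0.57 for 4h vs 2h, 0.45 for rev vs 4h and -0.30 for rev vs 0h. Under it no gene called here changed sign. On that scale the 8 genes had 2 rises and 1 fall in 4h vs 0h, against 476 and 6221 of all tested genes. They had 2 and 1 in 4h vs 2h (487 and 4869 of all tested), and 1 and 1 in rev vs 4h (2770 and 378). Il6st (0.68, adjusted p = 0.0582), Jak1 (0.49, adjusted p = 0.154) and Socs2 (0.39, adjusted p = 0.284) lost their calls in 4h vs 0h. Relative to the shifted median these 3 values were 1.41, 1.22 and 1.11. Calls were also lost for Jak1 at 2h (0.61, adjusted p = 0.376), for Socs2 in 4h vs 2h (0.62, adjusted p = 0.0692), and in rev vs 4h for Il6st (-0.44, adjusted p = 0.248) and Socs2 (-0.69, adjusted p = 0.0617). In rev vs 0h they were lost for Il6st (0.24, adjusted p = 0.681) and Jak1 (0.67, adjusted p = 0.159).

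The kinases responded differently in the 2 clones. A joint test over the 3 coefficients of group by clone gave an adjusted p of 0.000616 for Jak1 and 0.0135 for Jak2, and 3.18% of all tested genes passed it. Lifr (0.122), Il6st (0.379) and the other 4 genes did not pass. From 0h to 4h, Jak1 rose by 2.00 (SE 0.168) in clone 4 and by 0.53 (SE 0.128) in clone 8, a difference of -1.46 (clone 8 minus clone 4, adjusted p = 0.000152, SE 0.204). Jak2 rose by 3.26 (SE 0.358) in clone 4 and by 1.07 (SE 0.279) in clone 8, a difference of -2.19 (adjusted p = 0.00416, SE 0.431). Clone 4 at 0h is 1 library, assumed in these values to vary as the other groups do, and the differences could not be fitted without it. This contrast differed between clones for 3.87% of all tested genes. In clone 4 both kinases went on rising between 2 h and 4 h, while in clone 8 the 4h values lay below those at 2h, by amounts that did not pass the test.

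Between 2h and 4h, the change of Jak1 was 0.80 (SE 0.126) in clone 4 and -0.09 (SE 0.127) in clone 8, a difference of -0.88 (adjusted p = 0.00748, SE 0.179). That of Jak2 was 0.85 (SE 0.251) and -0.61 (SE 0.264), a difference of -1.46 (adjusted p = 0.0312, SE 0.364). Lifr differed the other way over the same step, at 1.65 (SE 0.205) in clone 4 and 2.76 (SE 0.196) in clone 8, a difference of 1.11 (adjusted p = 0.0305, SE 0.275). This step differed between clones for 3.14% of all tested genes. With the MEK inhibitor, Jak1 changed by -0.66 (SE 0.126) in clone 4 and 0.35 (SE 0.127) in clone 8, a difference of 1.01 (adjusted p = 0.00252, SE 0.179). Jak2 changed by -0.53 (SE 0.249) and 1.05 (SE 0.266), a difference of 1.58 (adjusted p = 0.0209, SE 0.364), and 2.80% of all tested genes differed between clones here. The 3 differences of Jak1 kept their calls in every fit without 1 library of the groups compared (adjusted p from 0.000303 to 0.0318), as did that of Jak2 in 4h vs 0h (0.00114 to 0.0192). For 4h vs 2h, that of Jak2 was lost without the first library of either clone at 2h, the first of clone 4 at 4h or the second of clone 8 at 4h (0.0984 to 0.135). For rev vs 4h it was lost without those same 2 libraries at 4h, either clone 4 library of rev or the first clone 8 library of rev (0.0635 to 0.0965). The difference of Lifr was lost in 6 of 8 such fits (0.0665 to 0.113) and held without the first clone 8 library at 2h and the first clone 4 library at 4h. The clones' libraries also differed at 4h in the naive markers given above, and in Lifr, whose 2 clone 8 values were the highest of all.

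**Figure D3:**
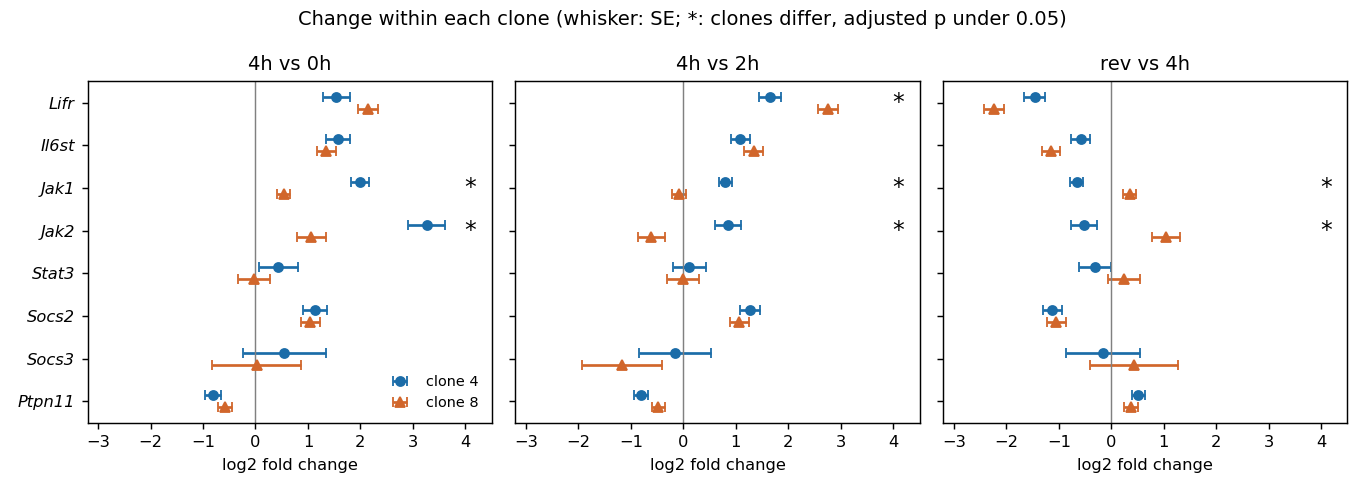
Log2 fold change within clone 4 (circles) and clone 8 (triangles) for the 8 genes in 3 comparisons, with the SE as whisker and an asterisk where the clones differed at an adjusted p under 0.05. Jak1 and Jak2 carry an asterisk in each panel and Lifr in 4h vs 2h, while the clones lie close together for Socs2 and Ptpn11.

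The joint result for Jak1 held in each of the 15 fits that left out 1 library (adjusted p from 0.000484 to 0.00917). That for Jak2 was lost without the first clone 4 library (adjusted p = 0.0798) or the second clone 8 library (adjusted p = 0.0870) at 4h, and with all libraries thinned to the depth of the smallest (adjusted p = 0.458, against 0.0318 for Jak1). Under total count scaling neither passed (0.772 for Jak1 and 0.177 for Jak2). Averaged over groups, Jak1 was lower in clone 8 (28.3 against 42.9 CPM, log2 -0.41, adjusted p = 0.0447, SE 0.137), with an adjusted p of up to 0.0931 when 1 library was left out. That call held without any 0h library, the first clone 4 library of rev or the second clone 8 library of rev, and was lost without each of the other 10. At 0h, Jak1 was instead higher in clone 8 (mean 19.4 CPM, against 16.1 in the 1 clone 4 library). The gap between clones was widest at 4h, with means of 28.1 CPM in clone 8 and 64.4 in clone 4. Lifr, higher in clone 8, kept its call in all 15. Between clones, 10.4% of all tested genes were higher and 8.11% lower in clone 8.

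The rest of the pathway was followed with a list of 48 further genes, of which 39 passed the filter. Among the ligands (3 of 7 tested), Lif had no call in the first 4 comparisons and fell in rev vs 0h (-0.72, adjusted p = 0.0442, SE 0.229, a call lost in each of 7 fits without 1 library). Clcf1, another ligand that signals through gp130 and Lifr, rose in 4h vs 2h (2.00, adjusted p = 0.000115, SE 0.347) and in rev vs 0h (1.18, adjusted p = 0.0286, SE 0.341), the second lost without the clone 4 or the first clone 8 library at 0h, or the second library of either clone in rev. The exons of Clcf1 overlap another gene on the same strand by 311 bases, and those of Il6ra, Cish, Gab1, Gbx2, Pim1 and Junb overlap antisense genes by 173 to 946 bases, so that their counts may hold reads of those genes. Cntfr, the receptor chain that joins Lifr and Il6st to bind CNTF, was at 5.08 to 7.56 CPM at 0h, 8.40 to 11.3 at 2h, 29.4 to 36.3 at 4h and 10.9 to 14.2 in rev. All 4h libraries of Cntfr lay above all others, and its log2 change in 4h vs 0h was 2.41 (adjusted p = 7.31e-10, SE 0.165). In rev it remained above 0h (1.04, adjusted p = 0.000142, SE 0.157). Il6ra, the chain for IL-6, rose in 4h vs 2h (2.52, adjusted p = 0.00110, SE 0.554) on at most 14 counts in a library. It lost the call without the second clone 4 library at 4h (adjusted p = 0.0514). Its mean was 0.788 CPM at 0h, 0.291 at 2h and 1.62 at 4h, and it had no call in 4h vs 0h.

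Over the list, 5 of the 39 genes rose and 0 fell in 2h vs 0h, where 3.98% of all tested genes rose and 2.46% fell. For 4h vs 0h the rises and falls were 17 and 4 (20.5% and 18.9% of all tested), and for 4h vs 2h they were 17 and 6 (19.7% and 19.2%). They were 4 and 11 for rev vs 4h (15.1% and 15.6%) and 3 and 3 for rev vs 0h (6.49% and 4.66%). Under total count scaling the list had 9 rises and 11 falls in 4h vs 0h, where 476 of all tested genes rose and 6221 fell. On that scale 4h vs 2h had 5 and 10, against 487 and 4869 of all tested, and rev vs 4h had 4 and 5, against 2770 and 378. With the size factors of DESeq2 in place of TMM, 4 rose and 1 fell in 2h vs 0h. The median log2 change was 0.10, 0.47, 0.37, -0.34 and 0.12 in the 5 comparisons in turn. The adaptors that link receptors to RAS and PI3K (5 of 6 tested) had 4 rises and 1 fall in 4h vs 0h, with Gab1 at 1.01 (SE 0.114) and Shc1 at -0.34 (SE 0.104). Beside the 2 Socs genes above, the list held 13 inhibitors: the other Socs genes, Cish, the Pias genes and 3 phosphatases. These 13 had 4 rises and 1 fall in that comparison, where 20.5% of all tested genes rose and 18.9% fell. Under total count scaling, where the median of all genes was -0.73, the adaptors had 0 rises and 1 fall, so that 4 calls were lost, and the inhibitors had 1 rise and 6 falls. Of the other 4 STAT genes tested, Stat5b fell in 4h vs 0h (-0.75, adjusted p = 0.0481, SE 0.296), a call lost without any of the 3 libraries at 0h or the second library of either clone at 4h. It also fell in rev vs 0h (-0.80, adjusted p = 0.0471, SE 0.258), a call lost without any library of the 2 groups except the first of clone 4 in rev. Stat6 rose in 2h vs 0h (0.61, adjusted p = 0.0476, SE 0.182), which was lost without any library of the 2 groups except the second of clone 8 at 2h. Stat2 rose in 4h vs 2h (0.64, adjusted p = 0.00306, SE 0.158) and fell in rev vs 4h (-0.51, adjusted p = 0.0170, SE 0.159). The fall was lost without the first clone 8 library at 4h or the second clone 4 library of rev. The 4h mean of Stat2, 11.6 CPM, was close to its 0h mean of 11.2, while the 2h mean was lower (7.55). Stat4 rose in 4h vs 2h (1.08, adjusted p = 0.0266, SE 0.377) on at most 16 counts in a library of these groups. That call was lost without the second clone 8 library at 2h or at 4h. The 2h mean of Stat4 (0.823 CPM) likewise lay below its 0h mean (1.34), and its 4h mean was 1.80. With TMM, none of these 4 STAT genes was called lower in 2h vs 0h or higher in 4h vs 0h. The exons of Stat4 overlap another gene on the same strand by 1033 bases, and those of Stat6 an antisense gene by 40.

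Cish, a Socs family member induced through STAT5, had 3 counts or fewer in each 4h library, with an average of 1.24 CPM at 0h and 1.30 CPM in rev. The 0h mean was 1.13-fold, and the rev mean 1.19-fold, the level of 3 counts averaged over the 4h libraries. Since the 4h counts of Cish were not all 0 and reached 3, these ratios are not lower limits. The edgeR calls (adjusted p = 0.0278 for 4h vs 0h and 0.0257 for rev vs 4h) were each lost in 3 fits without 1 library: both without either clone 8 library at 4h, the first also without the second clone 8 library at 0h, and the second also without the first clone 8 library of rev. Socs4, at 11.0 to 18.4 CPM at 4h, rose in rev vs 4h (0.56, adjusted p = 0.00369, SE 0.139).

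The 10 genes listed as Stat3 targets in stem cells, several of which also answer to ERK, did not follow 1 course. Junb, an AP-1 factor, stood at 2.11 to 2.91 CPM at 0h and 52.6 to 284 at 2h, a log2 change of 5.27 (adjusted p = 0.00146, SE 0.697), and fell by 3.23 in 4h vs 2h (adjusted p = 0.00103, SE 0.551). Myc rose by 3.93 on the log2 scale for 2h vs 0h (adjusted p = 0.00345, SE 0.599) and by 3.96 in 4h vs 0h (adjusted p = 0.000598, SE 0.622), and was still higher in rev vs 0h (2.65, adjusted p = 0.0157, SE 0.576), a call lost without the clone 4 library at 0h (adjusted p = 0.0702). Pim1, a survival kinase, rose by 1.13 for 2h vs 0h (adjusted p = 0.000508, SE 0.187) and fell by 1.58 in rev vs 4h (adjusted p = 6.12e-07, SE 0.171). In clone 4, Junb and Myc at 4h were at 38.5 and 38.5 CPM and at 91.0 and 98.2 CPM, and in clone 8 at 4.33 and 2.26 CPM and at 12.5 and 18.8 CPM. The clone 4 libraries were the higher ones at 4h for both genes, as for Jak1 and Jak2.

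Klf5, a pluripotency factor, was high at 4h, as the receptor chains were. It was at 4.59 to 7.63 CPM at 0h and 8.81 to 11.1 at 2h, then at 73.3 and 85.9 in clone 4 and 27.3 and 36.9 in clone 8 at 4h, and at 9.74 to 15.5 in rev. It rose by 2.97 for 4h vs 0h (adjusted p = 6.16e-05, SE 0.377) and by 2.44 in 4h vs 2h (adjusted p = 7.56e-05, SE 0.321), and fell by 2.03 in rev vs 4h (adjusted p = 0.000437, SE 0.319). Gbx2 fell by 1.81 in rev vs 4h (adjusted p = 7.27e-05, SE 0.292). It was at 1.20 to 1.73 CPM at 0h, 0.959 to 1.71 at 2h, 4.15 to 6.66 at 4h and 1.12 to 2.08 in rev. Mcl1, a survival factor of the Bcl2 family, was low at 4h, as Ptpn11 was, with -0.81 in 4h vs 0h (adjusted p = 9.79e-06, SE 0.113), -1.05 in 4h vs 2h (adjusted p = 1.45e-07, SE 0.106) and 0.55 in rev vs 4h (adjusted p = 0.000466, SE 0.106). Pim3 fell by 0.79 in 4h vs 2h (adjusted p = 0.00249, SE 0.191) and by 0.68 in rev vs 0h (adjusted p = 0.0280, SE 0.196), the second lost without any library of the 2 groups except the first of clone 4 in rev. In 4h vs 0h, 6 of the 9 tested targets rose and 1 fell, with a median of 1.79 (20.5% and 18.9% of all tested genes). In 4h vs 2h, 4 rose and 3 fell, with a median of 0.03 (19.7% and 19.2% of all tested). Under total count scaling these counts were 6 and 2, then 2 and 3. Those of all tested genes were 476 and 6221, then 487 and 4869.

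**Figure D4:**
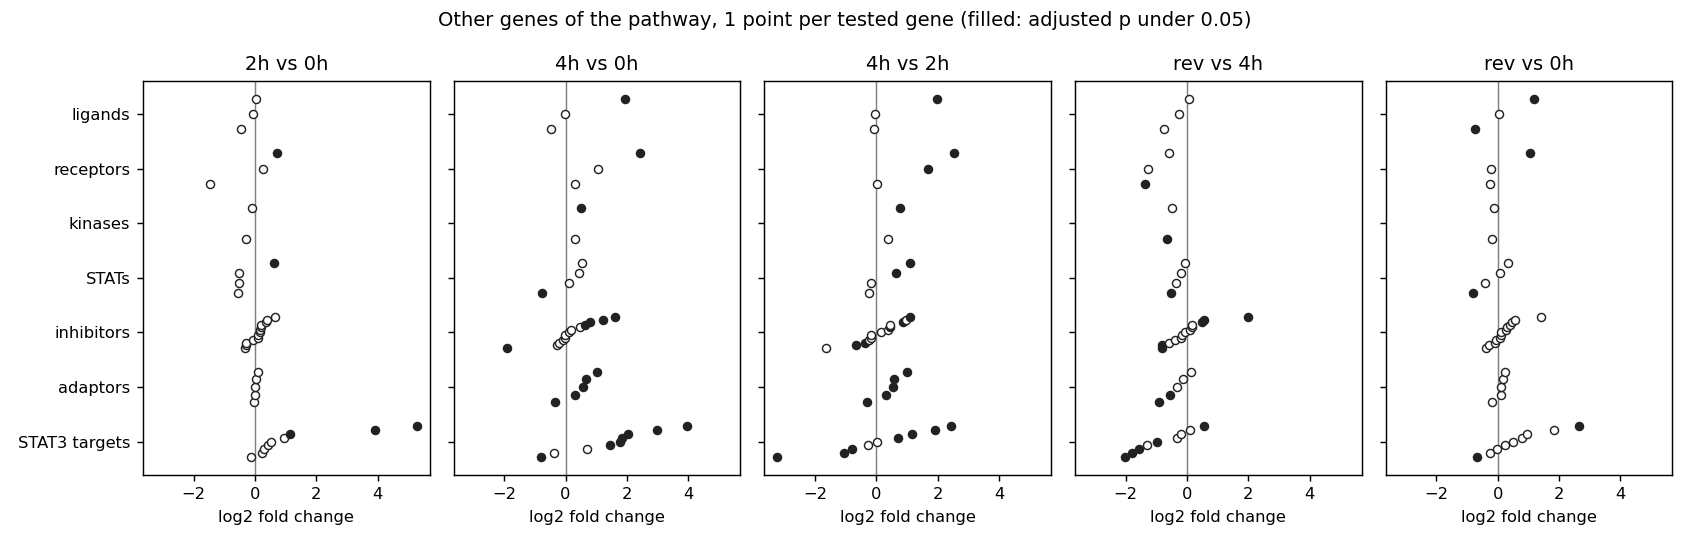
Log2 fold change (horizontal axis) of the 39 tested genes of the wider pathway list in the 5 comparisons, 1 point per gene, by the role listed on the vertical axis and filled where the adjusted p was under 0.05. Of the 5 filled points at 2h, 3 are Stat3 targets, 1 is a receptor and 1 a STAT, while adaptors and inhibitors have filled points in both comparisons of 4h with an earlier time and none at 2h.

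Across the 15 libraries, the 8 genes fell into patterns that their correlations describe. These are Pearson r of log2 CPM (prior count 2), with group, clone and depth shared by all genes, and are given without a test. Jak1 and Jak2 had an r of 0.94, Il6st and Socs2 of 0.89, Lifr and Socs2 of 0.83, and Lifr and Il6st of 0.81. Ptpn11 ran opposite to Socs2 (-0.88) and Il6st (-0.87). Lifr and the kinases were near 0, at -0.05 for Jak1 and -0.19 for Jak2.

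Among the 12284 genes with a mean of at least 1 CPM, those most like each gene over the 15 libraries were Zfp704 (r = 0.96), Sulf2 and Pml for Lifr, and Sox1 (r = 0.98), Nid1 and Kmt2c for Il6st. For Jak1 they were Phlda1 (r = 0.97), Tacc1 and Sertad2, and for Jak2 Tacc1 (r = 0.95), Csn3 and Dusp5. Tacc1 was thus on both lists. Those of Socs2 were Fn1 (r = 0.97), H2afy and Slc2a3, and those of Ptpn11 were Flywch1 (r = 0.98), Hist2h4 and Guk1. The closest genes were less alike for Stat3 (Irak1, r = 0.86, Glud1 and Fam102a) and for Socs3 (Crlf2, r = 0.86, Rab3gap2 and Mpg).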

How the data were processed

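RNA from 15 EpiLC samples was depleted of ribosomal RNA (1 µg per sample) and sequenced after a NEBNext library preparation, per the labels. The authors deposited raw counts per gene, with no normalization. The submitters' processing notes list STAR 2.5.3a, bcl2fastq 2.19.1 and the build mm10, without roles. The counting tool, annotation and strand setting are not given in the sources used here, so reads of overlapping antisense genes may be shared.

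Positions, exon lengths and overlaps came from GENCODE M21 (GRCm38, the same build), and promoter windows from RefSeq. Counts were fitted with edgeR 4.0.16 in R 4.3.3: filterByExpr (minimum count 10, minimum total 15), TMM scaling, and a quasi-likelihood model of group plus clone over all 15 samples. Tests were two-sided, with Benjamini-Hochberg adjustment over 13451 genes. Clone differences came from a model with a mean per group in each clone, and leaving out 1 library at a time from those of single comparisons was added after seeing the data. The script was tested on simulated data. SE was the log2 change divided by the square root of F. A total of 3 counts was worth 0.161 to 1.83 CPM, and floors cover counting error only. Libraries of 1 group and clone differed beyond counting noise (chi-square per degree of freedom 5.46 to 174).

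The 8 genes, the lists and the tests were chosen with earlier results of these data known. Named genes are all 8, the 3 largest called rises and falls of the wider list in each comparison, and the 3 genes most like each of the 8. Other genes of the list (Gab1, Shc1, Stat2, Stat4 and Stat6) and the markers named were chosen after their values were seen.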

Additional observations from a re-analysis of the deposited data

Results flagged for a closer look

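Of 24 sets of 4 libraries examined (8 genes in the 2h, 4h and rev groups), 1 held a library that stood apart from the other 3 at the 95% level: Socs3 at 4h in the first clone 4 library, at 3.05 CPM, which rests on 5 counts. Chance alone marks about 1 set in 20.

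The clones differed in their response in 9 tests. Each of the 8 genes had a joint test and a test of the difference in every comparison. All 9 use the 4h libraries, so they are not independent of each other. For Jak1 the joint test of group by clone had an adjusted p of 0.000616, and the response of clone 8 minus that of clone 4 was -1.46 on the log2 scale in 4h vs 0h, -0.88 in 4h vs 2h and 1.01 in rev vs 4h. For Jak2 the joint adjusted p was 0.0135, and the differences were -2.19, -1.46 and 1.58 in the same comparisons. For Lifr the difference was 1.11 in 4h vs 2h. All are from edgeR's quasi-likelihood test. Of all tested genes, 3.18% passed the joint test. The clones differed for 3.87% of them in 4h vs 0h, 3.14% in 4h vs 2h and 2.80% in rev vs 4h. Under total count scaling neither joint test passed (adjusted p = 0.772 for Jak1 and 0.177 for Jak2). The calls of Lifr, and those of Jak2 except in 4h vs 0h, were lost in some fits without 1 library, as given above.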

How the results depend on the processing

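The counts of called genes among the 8 were 2 in 2h vs 0h, 6 in 4h vs 0h, 4 in 4h vs 2h, 4 in rev vs 4h, 3 in rev vs 0h, 2 between clones and 2 in the joint clone test. With DESeq2, with its size factors in edgeR, without a filter beyond 1 count, after dropping mitochondrial genes together with the 20 most abundant ones, or with the older quasi-likelihood method of edgeR (an alternative chosen after seeing the data), each stayed within 1.5 times. Total count scaling gave 1 in 2h vs 0h, 3 in 4h vs 0h, 2 in rev vs 4h, 1 in rev vs 0h and 0 in the joint test. Thinning every library to 1552022 counts gave 1 in 2h vs 0h, 1 in rev vs 0h and 1 in the joint test, and Socs3 then failed the filter. Leaving out the clone term gave 1 in 2h vs 0h, where Jak1 was lost (adjusted p = 0.0800), and 2 in rev vs 0h, where Il6st was lost (adjusted p = 0.120). Leaving out 1 library at a time gave 0 to 2 in 2h vs 0h, 6 in 4h vs 0h, 4 to 5 in 4h vs 2h, 4 in rev vs 4h, 2 to 3 in rev vs 0h, 1 to 3 between clones and 1 to 2 in the joint test. Between clones, Jak2 was also called without the clone 4 library at 0h, and Stat3 without the first clone 4 library at 2h or the second clone 4 library at 4h. The cause of these shifts was not tested, beyond the lower counts of the thinned libraries.

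The labels give same-numbered libraries of a clone no tie beyond the number. Their deviations correlated between -0.194 and 0.261 over 9 pairs of groups. So few libraries cannot show whether same-numbered ones shared a culture or batch. With the replicate block, 1 gene was called in 2h vs 0h, where Jak1 was lost (0.75, adjusted p = 0.0795), and 2 in rev vs 0h, where Il6st was lost (0.50, adjusted p = 0.0572). No other call among the 8 changed under the replicate block.

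Changes of sign were seen only for log2 values that had not passed the test in the main analysis. Under total count scaling they became -0.0024 for Il6st and -0.071 for Stat3 in 2h vs 0h, -0.62 for Stat3 and -0.46 for Socs3 in 4h vs 0h, -0.12 for Jak1, -0.25 for Jak2 and -0.55 for Stat3 in 4h vs 2h, 0.18 for Jak1 and 0.46 for Stat3 in rev vs 4h, and -0.17 for Stat3 and -0.30 for Socs2 in rev vs 0h. In thinned libraries they became 0.26 for Socs2 and 0.033 for Ptpn11 in 2h vs 0h, -0.32 for Jak2 in rev vs 4h and 0.11 for Lifr in rev vs 0h. In clone 8 alone they were -0.022 in 2h vs 0h for Stat3, with -0.023 in 4h vs 0h, -0.086 for Jak1, -0.61 for Jak2 and -0.0017 for Stat3 in 4h vs 2h, 0.35 for Jak1 and 0.24 for Stat3 in rev vs 4h, and -0.0015 for Socs2 in rev vs 0h. In clone 4 alone they were 0.00066 for Ptpn11 in 2h vs 0h, -0.53 for Jak2 and -0.17 for Socs3 in rev vs 4h, and 0.081 for Lifr in rev vs 0h. Without a filter, Stat3 was at -0.040 in 4h vs 2h and 0.044 in rev vs 4h, and Socs2 at -0.028 in rev vs 0h. For that last value, -0.019 came from DESeq2 size factors, -0.028 without the clone term, -0.014 with the replicate block, -0.0019 without the most abundant genes, -0.019 from only the groups compared and -0.012 from DESeq2, and the block put Lifr in rev vs 0h at 0.0076. Over fits without 1 library, the ranges that crossed 0 were -0.054 to 0.21 for Stat3 and -0.13 to 0.018 for Ptpn11 in 2h vs 0h, -0.12 to 0.30 for Stat3 and -0.34 to 0.71 for Socs3 in 4h vs 0h, -0.045 to 0.55 for Jak2 and -0.25 to 0.21 for Stat3 in 4h vs 2h, -0.18 to 0.43 for Jak2, -0.17 to 0.26 for Stat3 and -0.32 to 0.79 for Socs3 in rev vs 4h, and -0.10 to 0.082 for Lifr and -0.054 to 0.039 for Socs2 in rev vs 0h.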
